A study of Mus musculus with 6 samples.

Results

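The genes described here are the chemokines and chemokine receptors of mouse dorsal skin 24 h after a single exposure to ultraviolet B light (UVB). They were chosen by symbol: a gene was included when 1 or more rows of the expression table named it alone and its symbol began as a CC, CXC, CX3C or XC ligand or receptor. The CCR7 and CXCR3 axes (Ccl19, the Ccl21 genes and Ccr7; Cxcl9, Cxcl10, Cxcl11 and Cxcr3) were left out by the same rule. This gave 46 genes of the 35556 rows in the table, namely 18 CC ligands, 10 CXC ligands, Cx3cl1, Xcl1 and 16 receptors. Ccl25 had 2 rows, and the row with the highest mean was used. Ccl27a, the keratinocyte chemokine that recruits Ccr10-bearing T cells, had rows that named further genes beside it, so it was not among the 46.

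The study compared wild-type (WT) mice on the BL6 background with Cbl-b-/- mice (clb-b -/- in the labels) of the same background, which lack the E3 ubiquitin ligase Cbl-b. Mice of both genotypes were sex- and age-matched, with ages not given in the sources used here. All were shaved on the back 1 day before they received 80 mJ/cm2 of UVB, and no unirradiated skin was analysed here, so every difference below lies between the genotypes after irradiation. Whole dorsal skin of 3 mice of each genotype was hybridised to 1 Affymetrix Mouse Gene 1.0 ST array per mouse. In whole skin, fewer cells of a type and less RNA per cell cannot be told apart.

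Chemokines are small secreted proteins that bind heparan sulphate on vessel walls and matrix and guide leukocytes through G protein-coupled receptors. In skin damaged by UVB, keratinocytes, fibroblasts, mast cells and resident macrophages are known sources of CXC ligands that carry the ELR motif and act on Cxcr2 of neutrophils, and of the monocyte chemoattractants that act on Ccr2. Cbl-b restrains receptor signalling in T cells and in other leukocytes, and mice that lack it have T cells that need less costimulation.

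The targeted gene separated the genotypes on every array. Cblb measured 8.61, 8.69 and 8.61 log2 units in the Cbl-b-/- mice and 9.90, 9.66 and 9.72 in the WT mice, a log2 fold change of -1.12 (SE 0.0924, limma adjusted p = 0.0782). The array medians lay between 6.30 and 6.34 log2 units. The 11 measured keratinocyte markers were all above background, with means of 10.88 to 11.23 on the 6 arrays, so the skin label held. WT replicate 3 stood apart in growing hair follicle markers, whose mean over 19 genes was 9.28 there and 5.52 to 6.99 elsewhere. Cbl-b-/- replicate 2 had the highest mean of the 16 measured neutrophil markers, 7.54, and Cbl-b-/- replicate 3 the lowest, 6.04.

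Cxcl1, Cxcl2 and Cxcl3, which attract neutrophils, and Cxcl13, which attracts B cells, lie on chromosome 5 and carry results described below. Their promoters are shown because the neutrophil attractants share a stretch that the Cxcl13 promoter lacks. Each line gives the 250 bases before the transcription start, 5′ to 3′ on the plus strand, from RefSeq on GRCm38.p6 (Cxcl1 chr5:90890995-90891244, Cxcl2 chr5:90903649-90903898, Cxcl3 chr5:90785851-90786100, Cxcl13 chr5:95956689-95956938). Capitals mark matches to GGNNNTTCC (a short form of the NF-kappaB site) and to TATAAA, both searched on both strands.
Cxcl1: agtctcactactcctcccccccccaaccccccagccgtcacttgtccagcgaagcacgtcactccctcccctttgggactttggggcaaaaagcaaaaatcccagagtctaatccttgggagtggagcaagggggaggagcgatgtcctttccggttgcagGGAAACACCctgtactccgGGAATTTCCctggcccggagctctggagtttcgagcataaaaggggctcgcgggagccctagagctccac
Cxcl2: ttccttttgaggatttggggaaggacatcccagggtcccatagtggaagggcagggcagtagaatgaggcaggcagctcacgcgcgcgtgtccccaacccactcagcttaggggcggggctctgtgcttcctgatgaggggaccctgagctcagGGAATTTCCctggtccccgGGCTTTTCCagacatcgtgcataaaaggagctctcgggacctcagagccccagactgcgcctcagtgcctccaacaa
Cxcl3: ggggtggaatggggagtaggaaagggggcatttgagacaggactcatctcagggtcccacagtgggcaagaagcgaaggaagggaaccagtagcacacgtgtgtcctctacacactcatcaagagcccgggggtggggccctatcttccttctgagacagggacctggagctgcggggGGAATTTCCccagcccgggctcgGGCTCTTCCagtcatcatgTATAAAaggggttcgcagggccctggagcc
Cxcl13: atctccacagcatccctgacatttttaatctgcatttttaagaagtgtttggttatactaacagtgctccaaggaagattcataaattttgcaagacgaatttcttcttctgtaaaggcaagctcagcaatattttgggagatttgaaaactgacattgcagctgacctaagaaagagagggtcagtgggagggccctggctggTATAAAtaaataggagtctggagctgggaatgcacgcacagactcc

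Cxcl1, Cxcl2 and Cxcl3 each hold GGAATTTCC, which matches on both strands at 1 place, beginning 70, 96 and 72 bases before the start. Each also holds a further match close by, at 89 bases in Cxcl1, 77 in Cxcl2 and 49 in Cxcl3, whereas Cxcl13 holds none in this window. The table held 36 promoters for 34 of the 46 genes, and GGNNNTTCC was found in 10 of these 36 (27.8%) and in 15.7% of all 32851 promoters, cut to the same length. TATAAA was found in 11 of the 36 (30.6%) and in 12.4% of all. GAAANNGAA, a short form of the interferon-stimulated response element, was found in 5 of the 36 (13.9%) and 7.13% of all, and TTCNNNGAA, a short form of the STAT site, in 4 (11.1%) and 7.02%. A match is a description of the letters and does not show that a factor binds.

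Across the 46 genes, 1 passed the study's thresholds of an unadjusted p under 0.05 and at least a 1.5-fold difference: Ccl24, the eosinophil attractant eotaxin-2, was higher in Cbl-b-/- skin. Of all 35556 rows, 434 (1.22%) passed, 98 higher (0.276%) and 336 lower (0.945%), so 1 in 46 was near the background. Ccl5, Cxcl16 and Ccr1l1 also had an unadjusted p under 0.05 by limma, which makes 4 of 46 against 6.55% of all rows. No member reached an adjusted p under 0.05 in limma, where the smallest was 0.602 and 0.00281% of all rows did. The test named in the study's methods, an equal-variance test on each row without moderation and called the methods' t-test below, gave 3 members at an unadjusted p under 0.05 (Ccl5, Ccr1l1 and Xcl1), against 6.98% of all rows. It gave 0 members that passed both thresholds (0.751% of all rows) and 0 after adjustment.

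The median log2 fold change of the 46 was 0.014, beside 0.020 for all rows, with 25 positive and 21 negative. The medians were -0.0053 in the CC ligands, -0.018 in the CXC ligands and 0.067 in the receptors. In 7 of the 46 the 3 mice of one genotype all lay on one side of the other 3, 6 of them higher in Cbl-b-/- skin and 1 lower, where 13.5% of all rows did so, 8.66% higher and 4.89% lower. Of the 16 receptors none passed the study's thresholds, and their log2 fold changes ran from -0.54 (Ccr1) to 0.31 (Cxcr1), 10 positive and 6 negative. Each p comes from 3 mice a genotype. The methods' t-test uses the spread between these mice alone, and limma draws that spread partly towards the spread found over all rows. The smallest two-sided exact permutation p this design allows for a single gene is 0.1.

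**Figure D1:**
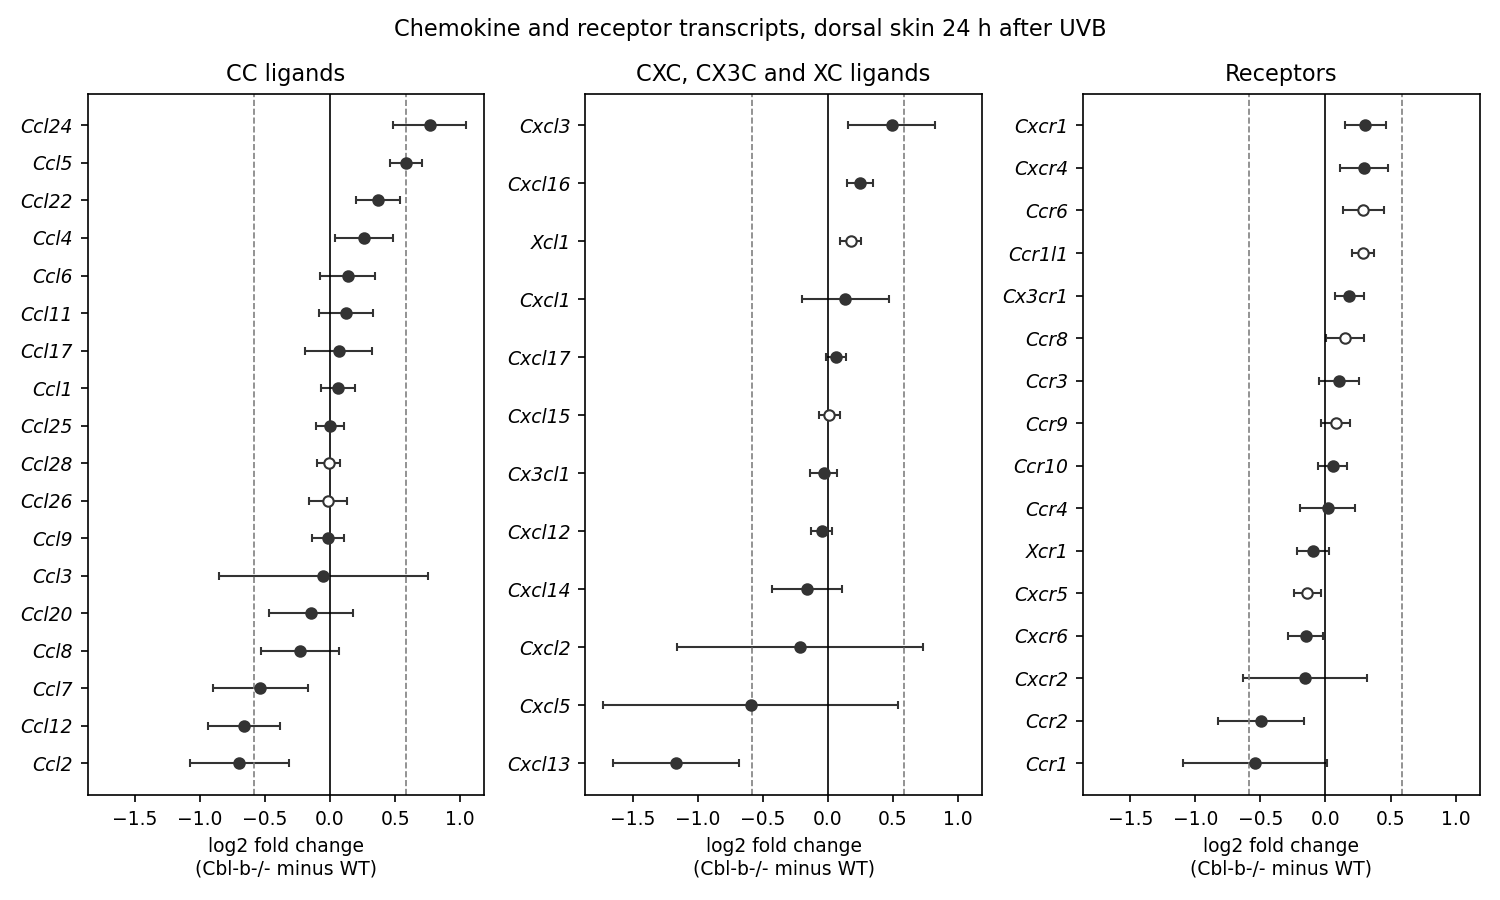
Log2 fold change of the 46 chemokine and chemokine receptor genes, Cbl-b-/- minus WT, by limma with its standard error (bars), in panels for CC ligands, other ligands and receptors. Open circles mark genes not above background in either genotype and dashed lines mark a 1.5-fold difference; Cxcl13 has the lowest value (-1.17) and Ccl24 the highest (0.77), and Cxcl5, Cxcl2 and Ccl3 have the widest bars.

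Background was set by olfactory and vomeronasal receptor genes, which skin is not known to use: the 95th percentile of their 1210 rows was 5.41 log2 units in the Cbl-b-/- arrays and 5.30 in the WT arrays. Above it in both genotypes were 36 of the 46, and Xcr1, a receptor of cross-presenting dendritic cells, was above it only in WT (mean 5.38, and 5.29 in Cbl-b-/-). The 9 genes not above it in either genotype were the ligands Ccl26, Ccl28, Cxcl15 and Xcl1 and the receptors Ccr1l1, Ccr6, Ccr8, Ccr9 and Cxcr5. Ccr1l1 and Xcl1, which were among the genes with a low p or no overlap, thus carry no fold change here. Ccr1l1 measured 4.23, 4.05 and 4.25 in Cbl-b-/- and 3.91, 3.92 and 3.83 in WT, with a limma p of 0.0145.

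Ccl24 was the member with the highest fold change. It measured 6.49, 7.25 and 7.67 log2 units in the Cbl-b-/- mice and 6.45, 6.31 and 6.35 in the WT mice. The genotypes did not overlap, but Cbl-b-/- replicate 1 lay only just above the highest WT mouse. The log2 fold change was 0.77 (1.70-fold, SE 0.281), with an unadjusted limma p of 0.0319, adjusted p = 0.749 and exact permutation p = 0.1. The call was lost in the methods' t-test, where the p was 0.0930, with array weights (log2 fold change 0.58), and without any single mouse other than Cbl-b-/- replicate 1. Without that mouse the value was 1.09, without Cbl-b-/- replicate 3 it was 0.50, and without each other mouse it lay between 0.71 and 0.81.

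Ccr3, the receptor of Ccl24 on eosinophils, measured 5.47, 5.41 and 5.97 in Cbl-b-/- and 5.50, 5.53 and 5.49 in WT, with a log2 fold change of 0.11 (SE 0.154, limma adjusted p = 0.899). The Cbl-b-/- mouse with the highest Ccl24 thus also had the highest Ccr3, and the other 5 mice lay between 5.41 and 5.53. Ccr3 was close to background (5.41 in Cbl-b-/- and 5.30 in WT), and this match rests on 1 mouse. Ccl11, the related eotaxin-1, had a mean of 9.56 ± 0.41 (SD, n = 3) in Cbl-b-/- and 9.44 ± 0.14 in WT, and the genotypes overlapped. Of the 12 measured mast cell and eosinophil markers, 1 passed the thresholds (1.22% of all rows), the mast cell tryptase Tpsb2. It measured 7.31, 7.32 and 7.70 in Cbl-b-/- and 7.14, 6.61 and 6.59 in WT (log2 fold change 0.66, SE 0.184, limma adjusted p = 0.686). The mast cell proteases Cma1 (0.51) and Mcpt4 (0.50) also had an unadjusted limma p under 0.05, as did Tpsab1, which was not above background in WT. This made 4 of 12, against 6.55% of all rows. Of the 12, 11 had a positive log2 fold change, and Kit, a receptor of mast cells, was the exception (-0.27, with overlap). The eosinophil marker Siglecf (0.080) overlapped between the genotypes, as did the mast cell gene Fcer1a (0.21). The mean level of the 12 markers was 6.31 to 6.60 in the Cbl-b-/- arrays and 6.09 to 6.29 in the WT arrays. The eosinophil granule genes Prg2 and Epx and the mast cell gene Ms4a2 were not above background in either genotype. The part of these cells in the Ccl24 difference was not tested.

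Ccl5 (RANTES), a ligand made by T cells, macrophages and keratinocytes that attracts T cells, monocytes and eosinophils, was the member with the smallest p. It measured 7.95, 8.06 and 8.04 in the Cbl-b-/- mice and 7.59, 7.20 and 7.51 in the WT mice. The genotypes did not overlap, and the Cbl-b-/- mice lay within 0.115 log2 units of each other. The log2 fold change was 0.584 (SE 0.120), just short of the 0.585 that 1.5-fold requires. The unadjusted limma p was 0.00222, with adjusted p = 0.602 and exact permutation p = 0.1, and the methods' t-test gave a p of 0.00973. Leaving out 1 mouse at a time moved the log2 fold change between 0.47 (without WT replicate 2) and 0.67 (without WT replicate 1) and the p between 0.00224 and 0.00885. It passed both thresholds without Cbl-b-/- replicate 1 (0.62), WT replicate 1 or WT replicate 3 (0.62), and with array weights (0.65).

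The 14 measured T and NK cell markers had mean levels of 5.66 to 5.82 in the Cbl-b-/- arrays and 5.65 to 5.73 in the WT arrays. None of them passed the thresholds, where 1.22% of all rows did. Of the 14, 2 had an unadjusted p under 0.05 by limma (6.55% of all rows), Il2rb (log2 fold change -0.29) and Cd3d. Cd3d was among the 4 not above background in either genotype. Cd3e, a chain of the T cell receptor complex, measured 7.23, 6.67 and 7.20 in Cbl-b-/- and 7.09, 7.27 and 6.87 in WT, with overlap. In 4 of the 14 the genotypes did not overlap, as in 13.5% of all rows. Cd3d, Cd2 (0.27) and Cd5 (0.18) were higher in Cbl-b-/- skin, as was Ccl5, and Il2rb was lower. The part of T cells in the Ccl5 difference was not tested. Of the other ligands of Ccr1, which also binds Ccl5, Ccl3 had a log2 fold change of -0.050, and Ccl6 and Ccl9 overlapped between the genotypes.

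Cxcl16, a membrane-bound ligand that also acts as a scavenger receptor on macrophages, measured 9.20, 9.15 and 9.32 in Cbl-b-/- and 9.04, 9.07 and 8.82 in WT. The genotypes did not overlap, at a difference below 1.5-fold: the log2 fold change was 0.25 (SE 0.0999). The unadjusted limma p was 0.0460, with adjusted p = 0.749 and exact permutation p = 0.1, and the methods' t-test gave a p of 0.0578. The unadjusted p was also above 0.05 with median centring (0.0622), with array weights (0.0682), with the replicate number as a block (0.0924) and in 5 of the 6 fits that left out 1 mouse, all but that without WT replicate 2. Its receptor Cxcr6, found on effector and resident T cells and NKT cells, lay on the other side, with 6.09, 5.72 and 5.87 in Cbl-b-/- and 6.22, 6.01 and 5.90 in WT. The Cxcr6 log2 fold change was -0.15 (SE 0.131, limma adjusted p = 0.830), with overlap.

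Ccl22 and Ccl17 are the dendritic cell ligands of Ccr4, a receptor of skin-homing and regulatory T cells. Ccl22 measured 6.71, 6.27 and 6.72 in Cbl-b-/- and 6.26, 6.40 and 5.94 in WT, a log2 fold change of 0.37 (SE 0.172, limma adjusted p = 0.750). Only Cbl-b-/- replicate 2 fell into the WT range. Ccl17 had a log2 fold change of 0.066 (SE 0.258, limma adjusted p = 0.969) and Ccr4 of 0.017 (SE 0.211, limma adjusted p = 0.989), and Cbl-b-/- replicate 2 was the lowest of all 6 mice in both. The 12 measured dendritic and Langerhans cell markers had mean levels of 6.51 to 6.64 in Cbl-b-/- and 6.45 to 6.66 in WT. Of them 1, Cd209a, passed as lower (log2 fold change -0.63, SE 0.253, limma adjusted p = 0.749), as did 0.945% of all rows.

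**Figure D2:**
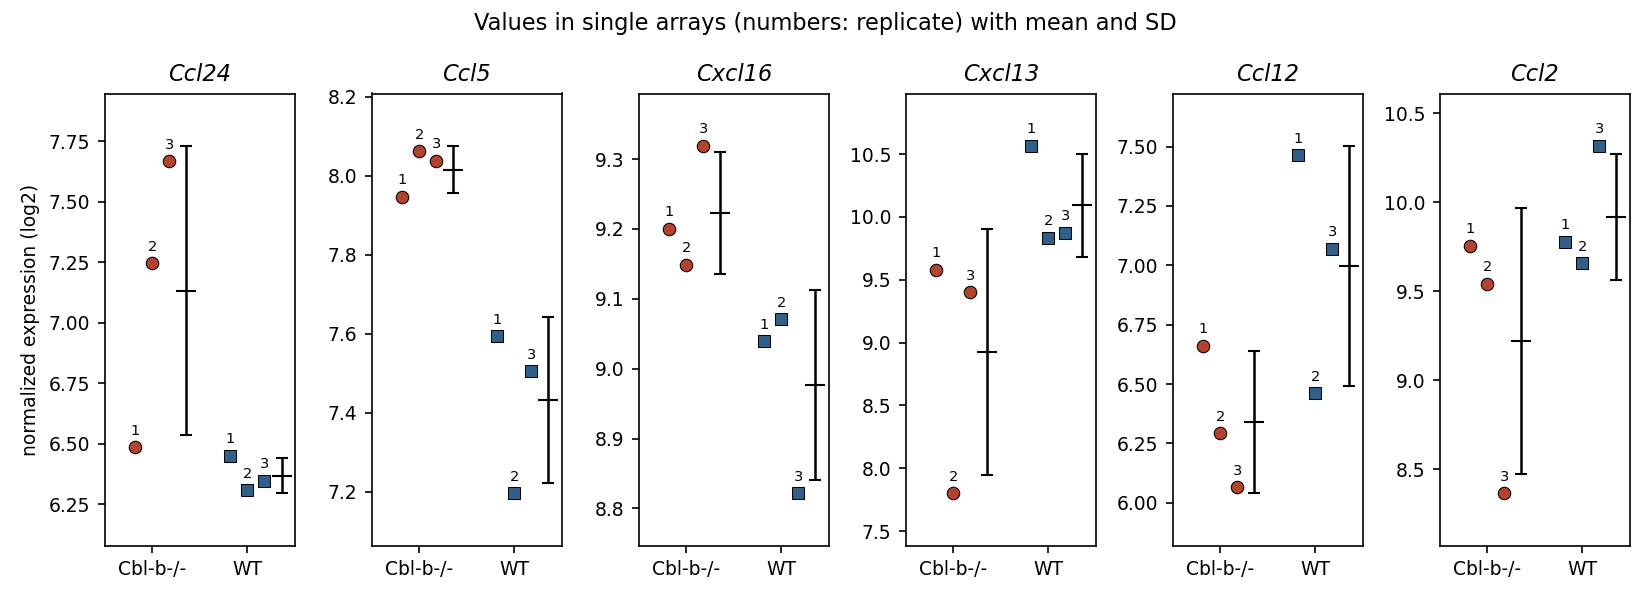
Log2 RMA values of 6 members in each mouse (circles Cbl-b-/-, squares WT; n = 3 each), with the mean and SD of each genotype. Ccl24, Ccl5 and Cxcl16 do not overlap between the genotypes and are higher in Cbl-b-/- skin, Cxcl13 does not overlap and is lower, and Ccl12 and Ccl2 overlap.

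On the lower side, no member passed the thresholds in the main limma fit, and Cxcl13 came nearest with the largest difference of all 46. Cxcl13 attracts B cells and follicular helper T cells through Cxcr5 and is made by stromal cells and macrophages. It measured 9.58, 7.80 and 9.40 in the Cbl-b-/- mice and 10.57, 9.83 and 9.88 in the WT mice. All Cbl-b-/- mice lay below all WT mice, and it was the only member of which this was true. The log2 fold change was -1.17 (2.24-fold lower, SE 0.486), with an unadjusted limma p of 0.0502, adjusted p = 0.749 and exact permutation p = 0.1, and a p of 0.131 in the methods' t-test.

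Cbl-b-/- replicate 2 carried a large part of that value: without it the log2 fold change was -0.60. Cxcl13 passed both thresholds without Cbl-b-/- replicate 1 (-1.49) or replicate 3 (-1.40), and at nearly the same value with a mean-variance trend, where its unadjusted p was 0.0490, and with each array centred on its median, where it was 0.0482. It also passed with the replicate number as a block, at an unadjusted limma p of 0.0176. Cxcr5 measured 3.57 to 3.73 in Cbl-b-/- and 3.60 to 3.90 in WT and was not above background. The 6 measured B cell markers had mean levels of 4.70 to 4.73 and 4.57 to 4.72, and 3 of them were not above background in either genotype, among them Ms4a1 and Cd79a. Of the other 3, Cd79b, a chain of the B cell receptor, was the 1 with an unadjusted limma p under 0.05 (6.55% of all rows). Cd79b lay on the opposite side to Cxcl13, with 5.47, 5.76 and 5.63 in Cbl-b-/- and 5.19, 5.40 and 5.42 in WT (log2 fold change 0.28, SE 0.111, limma adjusted p = 0.749).

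Ccl2, Ccl7, Ccl12 and Ccl8 are the monocyte chemoattractants, and the first 3 act mainly through Ccr2 on inflammatory monocytes. Ccl12 measured 6.66, 6.29 and 6.07 in Cbl-b-/- and 7.46, 6.46 and 7.07 in WT, a log2 fold change of -0.66 (SE 0.275) with an unadjusted limma p of 0.0502, adjusted p = 0.749 and exact permutation p = 0.2. The genotypes overlapped through Cbl-b-/- replicate 1 and WT replicate 2. Ccl12 passed both thresholds without either of these mice (-0.82 and -0.93), and with cyclic loess (-0.68) or median centring (-0.67). It also passed with the replicate number as a block, at an unadjusted limma p of 0.0198.

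Ccl2 measured 9.75, 9.54 and 8.36 in Cbl-b-/- and 9.78, 9.66 and 10.32 in WT, a log2 fold change of -0.70 (1.62-fold lower, SE 0.381, limma adjusted p = 0.771). Ccl7 measured 10.14, 10.14 and 8.78 in Cbl-b-/- and 10.25, 10.12 and 10.29 in WT, a log2 fold change of -0.53 (SE 0.364, limma adjusted p = 0.796). In both genes Cbl-b-/- replicate 3 was the low mouse and the other Cbl-b-/- mice lay near or within the WT range, and without it the log2 fold changes were -0.27 and -0.082. Ccr2 measured 8.63, 9.02 and 7.85 in Cbl-b-/- and 9.44, 8.90 and 8.65 in WT, again lowest in Cbl-b-/- replicate 3 (log2 fold change -0.50, SE 0.332, limma adjusted p = 0.795). Ccl8, which in mice acts on Ccr8, had a log2 fold change of -0.23 (SE 0.300, limma adjusted p = 0.887), and its lowest Cbl-b-/- mouse was replicate 1.

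The 17 measured monocyte and macrophage markers had mean levels of 8.47, 8.79 and 8.53 in Cbl-b-/- and 9.11, 8.54 and 8.37 in WT. None passed the thresholds (1.22% of all rows), and Marco was the only one not above background in either genotype. Neither limma (6.55% of all rows) nor the methods' t-test (6.98% of all rows) gave any of them an unadjusted p under 0.05 (0 each). WT replicate 1, the highest of the 6 in the mean of these markers, was also the highest in Ccl12, Ccr2, Ccl8 and Cxcl13. Ccl2 and Ccl7 were instead highest in WT replicate 3, the lowest of the 6 in that mean. The part of monocytes and macrophages in these differences was not tested.

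The neutrophil axis differed more between the Cbl-b-/- mice than between the genotypes. In Cxcl5, Cxcl2, Ccl3 and Cxcl1 the WT mice, too, differed more from each other than the genotypes did. Cxcl1, Cxcl2, Cxcl3 and Cxcl5 act on Cxcr2, the main neutrophil chemokine receptor, and Ccl3 acts on Ccr1, which mouse neutrophils also carry. Cxcl5 measured 5.09, 8.57 and 4.50 in Cbl-b-/- and 5.28, 7.33 and 7.34 in WT, a range of 4.06 log2 units among the Cbl-b-/- mice and 2.07 among the WT mice. Cxcl2 measured 8.12, 8.99 and 5.20 in Cbl-b-/- and 8.19, 6.93 and 7.83 in WT. In both genes the highest and the lowest of the 6 mice were Cbl-b-/- mice, replicates 2 and 3.

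The log2 fold change was -0.59 for Cxcl5 (1.51-fold lower, SE 1.13, limma adjusted p = 0.928) and -0.21 for Cxcl2 (SE 0.947, limma adjusted p = 0.972). Ccl3, which measured 9.85, 10.42 and 7.46 in Cbl-b-/- and 9.84, 8.37 and 9.67 in WT, had the same order among the Cbl-b-/- mice (log2 fold change -0.050, SE 0.802, limma adjusted p = 0.992). Cxcl3 measured 5.73, 6.68 and 5.32 in Cbl-b-/- and 5.36, 5.26 and 5.63 in WT, with a log2 fold change of 0.49 (SE 0.333, limma adjusted p = 0.796). Cxcl1 measured 7.16, 7.60 and 6.66 in Cbl-b-/- and 6.56, 6.85 and 7.60 in WT, with a log2 fold change of 0.14 (SE 0.331, limma adjusted p = 0.944). All 5 ligands were thus highest in replicate 2 and lowest in replicate 3 of the Cbl-b-/- mice, while the WT mice had no shared order. The range among the WT mice was 1.26 log2 units for Cxcl2, 1.47 for Ccl3, 0.36 for Cxcl3 and 1.05 for Cxcl1. For Cxcl1 it was wider than among the Cbl-b-/- mice (0.94).

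The receptors kept that order. Cxcr2 measured 8.82, 10.31 and 8.34 in Cbl-b-/- and 9.38, 9.46 and 9.10 in WT (log2 fold change -0.16, SE 0.476, limma adjusted p = 0.960). Ccr1 measured 6.64, 8.04 and 5.66 in Cbl-b-/- and 7.51, 7.21 and 7.25 in WT (log2 fold change -0.54, SE 0.551, limma adjusted p = 0.855). In both, the WT mice lay within 0.36 log2 units of each other, and the Cbl-b-/- mice spanned 1.97 and 2.38. Cxcr1, the related receptor that lies beside Cxcr2 in the genome, measured 5.83, 6.28 and 5.70 in Cbl-b-/- and 5.61, 5.69 and 5.60 in WT. It did not overlap between the genotypes, at a log2 fold change of 0.31 (SE 0.155, limma adjusted p = 0.755).

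These values depended on single mice. Without Cbl-b-/- replicate 2, Cxcl5 (-1.85), Ccr1 (-1.17) and Cxcr2 (-0.73) passed both thresholds as lower by limma, where 2.22% of all rows passed. Without Cbl-b-/- replicate 3 their log2 fold changes were 0.18, 0.020 and 0.25, and Cxcl3 passed as higher (0.79), where 1.46% of all rows passed. The sign of all 3 thus turned with the mouse that was left out.

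**Figure D3:**
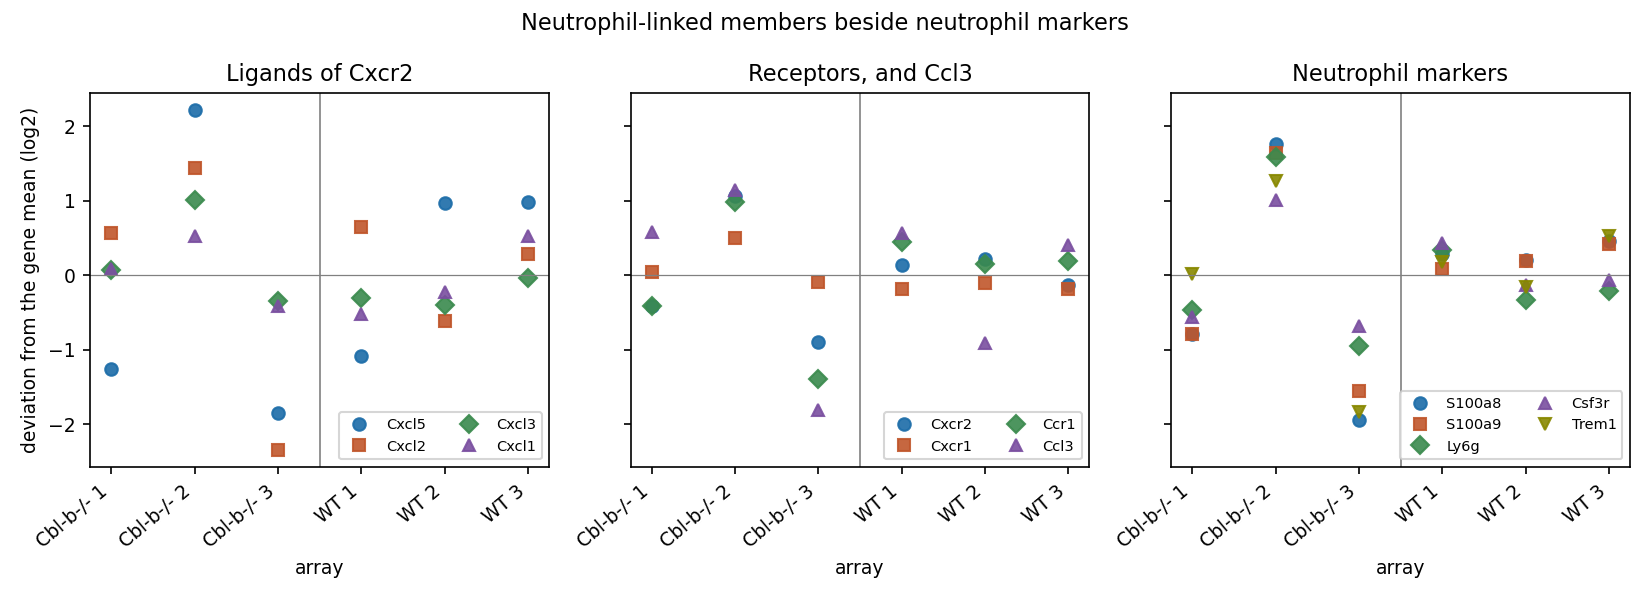
Deviation of each mouse from the gene's mean over the 6 arrays, in log2 units, for the ligands Cxcl5, Cxcl2, Cxcl3 and Cxcl1, for Cxcr2, Cxcr1, Ccr1 and Ccl3, and for the neutrophil markers S100a8, S100a9, Ly6g, Csf3r and Trem1; mice are along the horizontal axis. In all 3 panels Cbl-b-/- replicate 2 is above and Cbl-b-/- replicate 3 below the gene mean. In Cxcl1, Cxcl3 and Cxcr1, however, WT mice lie below Cbl-b-/- replicate 3, and Cxcl1 is highest in WT replicate 3. The markers drawn all have this order among the Cbl-b-/- mice, which 10 of the 16 measured neutrophil markers had. Il1r2 and Elane, not drawn, had the reverse order.

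Of the 16 measured neutrophil markers, 10 (62.5%) were highest in replicate 2 and lowest in replicate 3 among the Cbl-b-/- mice, as were 21.6% of all rows. The order was not limited to these markers. It was found in 16 of the 46 members (34.8%) and in 5 of the 17 macrophage markers (29.4%). All 4 macrophage markers with a range over 1 log2 unit across the Cbl-b-/- mice had it. S100a8, a calcium-binding protein abundant in neutrophils and in inflamed keratinocytes, measured 7.75, 10.32 and 6.60 in Cbl-b-/- and 8.84, 8.76 and 9.02 in WT. Ly6g, a neutrophil surface protein, measured 5.54, 7.59 and 5.06 in Cbl-b-/- and 6.34, 5.67 and 5.79 in WT. Not all markers had this order: Retnlg, a resistin-like protein of neutrophils, measured 6.49, 9.32 and 7.07 in Cbl-b-/-, and Il1r2, a decoy receptor, 9.33, 9.25 and 9.48. Of the 16, 11 were highest of the 6 mice in Cbl-b-/- replicate 2 (18.2% of all rows), 9 were lowest in Cbl-b-/- replicate 3 (20.3% of all rows), and 0 passed the thresholds (1.22% of all rows). Elane alone had an unadjusted p under 0.05 by limma (6.55% of all rows), and 0 did by the methods' t-test (6.98% of all rows). The mean level of the 16 was 6.48, 7.54 and 6.04 in Cbl-b-/- and 6.995, 6.71 and 6.77 in WT, and Ngp, Ltf and Mpo were not above background in either genotype. The part of neutrophil number in the chemokine values was not tested.

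Wide spread among the Cbl-b-/- mice reached beyond these genes. A range over 1 log2 unit across the Cbl-b-/- mice was found in 13 of the 46 members (28.3%) and in 3.97% of all rows. Across the WT mice it was found in 6 members (13%) and in 3.18% of all rows. The 13 were Cxcl5, Cxcl2, Ccl3, Ccr1, Cxcr2, Cxcl13, Ccl2, Ccl7, Cxcl3, Ccl24, Ccr2, Ccl20 and Cxcl14, and in 8 of them replicate 2 was the highest and replicate 3 the lowest Cbl-b-/- mouse (61.5%), as in 32.6% of all rows with so wide a range. The median range was 0.53 log2 units in Cbl-b-/- and 0.32 in WT for the members, and 0.243 and 0.245 for all rows. Ccl24 and Cxcl13 were among the 13 but had other orders, Ccl24 being highest in replicate 3 and Cxcl13 lowest in replicate 2.

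**Figure D4:**
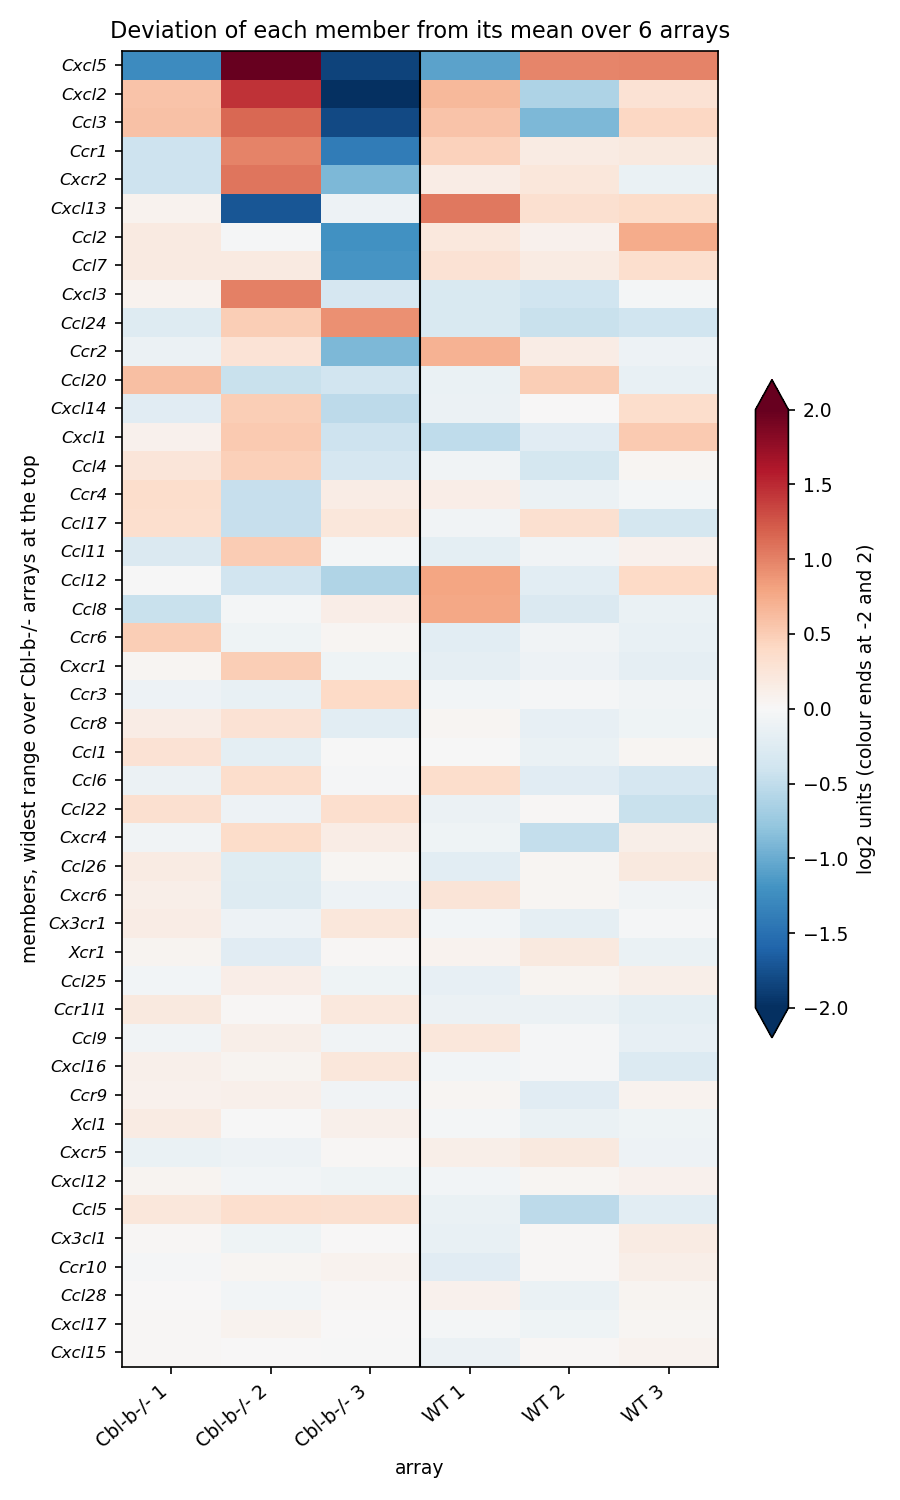
Deviation of each of the 46 members from its mean over the 6 arrays, in log2 units (colour), for each mouse (columns), ordered from the widest to the narrowest range across the Cbl-b-/- mice. The genes at the top, from Cxcl5 with a range of 4.06, are mostly high in Cbl-b-/- replicate 2 and low in Cbl-b-/- replicate 3, and the WT columns vary less.

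None of the homeostatic chemokines of skin passed the thresholds. Cxcl12, the stromal ligand that holds leukocytes and stem cells through Cxcr4, measured 8.67, 8.56 and 8.53 in Cbl-b-/- and 8.55, 8.65 and 8.69 in WT, a log2 fold change of -0.046 (SE 0.0818, limma adjusted p = 0.922). Cxcr4 measured 6.59, 7.04 and 6.82 in Cbl-b-/- and 6.58, 6.20 and 6.79 in WT, a log2 fold change of 0.30 (SE 0.182, limma adjusted p = 0.782), with overlap. Cxcl14, made by resting epidermis, measured 9.12, 9.84 and 8.82 in Cbl-b-/- and 9.22, 9.35 and 9.68 in WT (log2 fold change -0.16, SE 0.268, limma adjusted p = 0.916). A p of this size does not show that the genotypes were alike.

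Ccl20, the epidermal ligand of Ccr6, measured 8.68, 7.63 and 7.70 in Cbl-b-/- and 7.95, 8.57 and 7.93 in WT, a log2 fold change of -0.15 (SE 0.321, limma adjusted p = 0.938). Cbl-b-/- replicate 1 was its highest mouse, unlike in the neutrophil attractants. Ccr10, the receptor of Ccl27a and Ccl28, had a log2 fold change of 0.055 (SE 0.110, limma adjusted p = 0.931). Cx3cl1 (fractalkine), the membrane-bound ligand of endothelium and epithelium, had -0.032 (SE 0.103, limma adjusted p = 0.961). Its receptor Cx3cr1, found on monocytes and resident macrophages, had 0.18 (SE 0.111, limma adjusted p = 0.780), and the genotypes overlapped in each of these.

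Ccl4, a macrophage inflammatory protein like Ccl3, measured 5.91, 6.14 and 5.33 in Cbl-b-/- and 5.59, 5.30 and 5.70 in WT, a log2 fold change of 0.26 (SE 0.221, limma adjusted p = 0.828), again highest in replicate 2 and lowest in replicate 3 of the Cbl-b-/- mice. The members above background not named with a fold change above were Ccl1, Ccl6, Ccl9, Ccl11, Ccl25 and Cxcl17. Their log2 fold changes lay between -0.016 (Ccl9) and 0.14 (Ccl6), each with a limma p of 0.427 or more, and the genotypes overlapped in every one.

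Many of the 46 lie side by side in the genome. By RefSeq gene order on GRCm38.p6, 32 of them fell into 8 groups in which neighbouring members had at most 2 other protein-coding genes between them. None was on the chromosome of Cblb. The row of Ccl2, Ccl7, Ccl11, Ccl12, Ccl8 and Ccl1 had a median log2 fold change of -0.38, 4 lower and 2 higher. The row of Ccl5, Ccl9, Ccl6, Ccl3 and Ccl4 had a median of 0.14, and that of Cxcl5, Cxcl3, Cxcl15, Cxcl1 and Cxcl2, which holds the promoters with the shared sequence, 0.011. The receptor row of Ccr9, Cxcr6, Xcr1, Ccr1, Ccr1l1, Ccr3 and Ccr2 had a median of -0.094. Members of 1 row thus lay on both sides of 0, and these medians include members not above background.

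The other genes of the pathway were platelet chemokines, the atypical receptors that clear chemokines, G protein subunits and their regulators, arrestins, kinases, Rac activators and syndecans. Of the 37 measured of 39 listed, 0 passed the thresholds in either direction (1.22% of all rows), and the median log2 fold change was 0.048 (range -0.28 to 0.48, 24 positive). By limma 2 had an unadjusted p under 0.05 (6.55% of all rows), and by the methods' t-test 1 (6.98% of all rows). Ccrl2, a non-signalling receptor that presents chemerin, measured 6.54, 6.71 and 6.17 in Cbl-b-/- and 6.19, 5.90 and 6.07 in WT (log2 fold change 0.42, SE 0.158, limma adjusted p = 0.749). Prex1, a Rac exchange factor downstream of chemokine receptors in neutrophils, measured 6.75, 6.94 and 6.76 in Cbl-b-/- and 6.67, 6.55 and 6.54 in WT (0.23, SE 0.0900, limma adjusted p = 0.749). Prex1 did not overlap between the genotypes, and neither did Ackr2, the scavenger of inflammatory CC chemokines. These were the 2 of the 37 without overlap, where 13.5% of all rows had none. Ackr2 measured 7.71, 7.38 and 7.51 in Cbl-b-/- and 7.36, 7.38 and 6.63 in WT (0.41, SE 0.219, limma adjusted p = 0.764), where the genotypes nearly met at 7.38.

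Cytokines and signalling genes known to induce chemokines were listed as well, and 27 of 35 were measured. None passed the thresholds in either direction (1.22% of all rows), and the median log2 fold change was -0.072 (range -0.39 to 0.33). An unadjusted p under 0.05 was found for 1 by limma (6.55% of all rows) and for 1 by the methods' t-test (6.98% of all rows). Both counts were Il17a, the cytokine of gamma delta T cells and Th17 cells (limma adjusted p = 0.749), whose values of 5.05 to 5.32 were not above background in either genotype. Il1b, an inducer of Cxcl1 and Cxcl2, measured 8.87, 9.85 and 7.69 in Cbl-b-/- and 8.73, 8.63 and 9.41 in WT. Il6 measured 5.91, 7.70 and 4.61 in Cbl-b-/- and 4.99, 6.74 and 6.67 in WT. Il33, the epidermal alarmin, measured 9.51, 11.10 and 8.94 in Cbl-b-/- and 10.36, 10.32 and 10.03 in WT. All 3 were highest in replicate 2 and lowest in replicate 3 of the Cbl-b-/- mice, as were the neutrophil attractants and 21.6% of all rows. Further inducers of the list had the same order, among them the receptor genes Tnfrsf1a, Il4ra and Osmr and the signalling genes Stat3 and Nfkbia. The order was thus not particular to these 3 cytokines. Not all inducers had this order: in Cbl-b-/- Tslp measured 5.06, 6.15 and 6.96, and Tnf 7.20, 6.84 and 6.80. All of these inducers were chosen for mention after their values were seen.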

How the data were processed

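RNA of whole dorsal skin from 3 WT and 3 Cbl-b-/- mice, 1 array per mouse, was hybridised to Affymetrix Mouse Gene 1.0 ST arrays. The values deposited by the authors are log2 expression estimates from robust multi-array average (RMA) normalization, for 35556 transcript clusters (rows). The submitters' processing notes name Affymetrix Expression Console and Partek 6.5; a genome build was not given in the sources used here. RMA forces the arrays to 1 distribution, so a change shared by most genes would not be seen. The table holds no detection p, and the number of arrays limits precision. Levels of different genes come from different probes and were not compared.

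Rows were named from the platform annotation, symbols being updated through Entrez IDs with RefSeq: 21789 rows had 1 symbol (21698 matched), 1621 several and 12146 none; rows with several were not used for names. Genotype was taken from the labels, and each array is a separate mouse. All rows were fitted with limma 3.58.1 (lmFit and eBayes, R 4.3.3), Cbl-b-/- minus WT, with Benjamini-Hochberg adjustment over all rows, and the script was tested on simulated data. Fold changes are differences of log2 means. Calls used the study's thresholds, an unadjusted p under 0.05 and at least 1.5-fold. Figures were drawn with matplotlib 3.10.9.

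The members, lists and tests were chosen with earlier results of these data known, so no pattern here is independent support. Full values were given for members with an unadjusted p under 0.05 or 1.5-fold, their ligands or receptors, and a set list of skin and neutrophil chemokines; list genes were named when past a threshold, and other marker genes after their values were seen. Alternatives were the methods' t-test (a one-way analysis of variance per row), a mean-variance trend, cyclic loess, median centring, a background filter, array weights, the replicate number as a block, the mean of a gene's rows, and leaving out each array.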

Additional observations from a re-analysis of the deposited data

How the results depend on the processing

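No member passed an adjusted p under 0.05 under any alternative run. The count that passed the study's thresholds was 1 by limma. It was 0 by the methods' t-test (0 higher), 2 with a mean-variance trend (1 lower, Cxcl13), 2 with cyclic loess (1 lower, Ccl12), and 3 with median centring (2 lower, Ccl12 and Cxcl13), where 0.751%, 1.23%, 1.35% and 1.25% of all rows passed. Leaving out each mouse gave 1 to 4 members, with 0 to 2 higher and 0 to 3 lower, and 1.2% to 2.22% of all rows. Members at an unadjusted p under 0.05 numbered 2 to 9 when a mouse was left out, where 4.60% to 7.79% of all rows had one. Array weights kept the count at 1 but exchanged Ccl24 for Ccl5. The median log2 fold change of the members was 0.0068 to 0.069 without each mouse and -0.019 with cyclic loess, where the median of all rows was -0.0060. Leaving out each mouse gave 0 to 1 pathway genes and 0 to 2 inducer genes past the thresholds, and a Cblb log2 fold change of -1.17 to -1.05. The 30 members printed with a fold change and its standard error were followed through every setting run. Of these, 16 kept their sign throughout, among them Ccl24, Ccl5, Cxcl16, Cxcl13, Ccl12, Ccl2, Ccl7 and Ccr2. With array weights Cxcl2 was 0.34, Ccl3 0.54 and Ccl17 -0.0087, and with cyclic loess Ccr4 was -0.033. When each mouse was left out, the log2 fold change ranged from -1.85 to 0.18 for Cxcl5, -1.17 to 0.020 for Ccr1, -0.43 to 0.095 for Ccl8, -0.99 to 0.90 for Cxcl2, -0.45 to 0.059 for Cxcl14, -0.73 to 0.25 for Cxcr2 and -0.49 to 0.062 for Ccl20. It ranged from -0.64 to 0.84 for Ccl3, -0.11 to 0.045 for Cx3cl1, -0.15 to 0.25 for Ccr4, -0.047 to 0.13 for Ccr10, -0.090 to 0.32 for Ccl17, -0.068 to 0.21 for Ccr3 and -0.095 to 0.44 for Cxcl1. The cause was not tested.

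Both genotypes carry the replicate numbers 1 to 3. The deviations of same-numbered mice from their group means correlated at 0.233, 0.0924 and 0.247. Each Cbl-b-/- mouse correlated best with the WT mouse of its number. Pairs with unlike numbers ran from -0.327 to 0.232, the highest being Cbl-b-/- replicate 1 with WT replicate 2. The sources used here do not say that the numbers pair the mice, so the main fit left them out. A batch shared by number was not tested. With the replicate number as a block, 3 members passed the thresholds, 2 of them lower (Ccl24, Ccl12 and Cxcl13), and 1.27% of all rows.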
